A study of Sus scrofa with 8 samples.

Results

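The HOXD cluster of the pig is a run of homeobox genes on chromosome 15. Its members were taken by name from the RefSeq annotation of Sscrofa11.1, which names 8 of the 9 genes from HOXD1 to HOXD13 among its 28077 genes on chromosomes 1 to 18 and X. HOXD4 is the member that this annotation does not name, and it was not analysed here. All 8 genes lie on the forward strand in the order HOXD13, HOXD12, HOXD11, HOXD10 and HOXD9 (which overlap), HOXD8, HOXD3 and HOXD1, between chr15:81893997-81990026, a stretch of 96.03 kb. The peaks described are those within 1 kb of each annotated gene start (TSS), those across the cluster, and those in the flanking 1 Mb on either side, named here the HOXD13 side (lower coordinates) and the HOXD1 side (higher coordinates). Of the 37932 and 43516 H3K4me3 peaks deposited for replicates 1 and 2, 54 and 61 had their summit in this region, as did 77 of 74983 and 77 of 81164 H3K27ac peaks, and 49 of 40289 and 52 of 44682 CTCF peaks.

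ChIP-seq, the sequencing of DNA recovered with an antibody to a modified histone or a protein, was carried out on untreated pig embryonic fibroblasts (PEFs) of Large White fetuses aged 35 days. There were 2 replicates each for H3K4me3, H3K27ac and CTCF, 6 libraries in all, with no treatment, genotype or second cell type to compare. The labels do not say whether replicates came from separate cultures or fetuses, so the spread between them may be technical. Each value below is the fold enrichment of a peak over the control at its summit, as the authors' peak caller gave it. The lists hold no read counts, and the depth behind each peak is therefore unknown here.

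The libraries carried the marks of fibroblast genes. All 13 fibroblast markers, such as COL1A1 and VIM (named as examples after their values were seen), had H3K4me3 and H3K27ac peaks at the TSS in both replicates. Of 18 markers of blood, endothelium, epithelium, muscle and neural cells, 9 had H3K4me3, 2 had H3K27ac (MYOG and DES, of muscle) and 1 (DES) had both marks in both replicates. Of all genes, 55.4% had H3K4me3, 50.1% had H3K27ac and 47.0% had both marks. The H3K4me3 count of the 18 was thus near the share of all genes. All 4 epithelial markers had H3K4me3, so that this mark alone did not set the fibroblast markers apart. The 4 blood markers had no peak of any library at the TSS. The median fold enrichment of all H3K4me3 peaks was 9.27 in replicate 1 and 6.16 in replicate 2, so fold enrichment was compared within a library and not across replicates.

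HOXD genes encode homeodomain transcription factors that give cells their position along the body axis and the limb. The genes are activated in the order in which they stand, with HOXD1 early and anterior and HOXD13 late and posterior, and in the limb the gene-poor regions on either side of the cluster hold enhancers that act on different members. H3K4me3 marks promoters, and it is also found at silent developmental genes held by Polycomb proteins. H3K27ac marks active promoters and enhancers. CTCF is a DNA-binding protein that holds chromatin loops together with cohesin, preferentially between sites whose motifs face each other, so the strand of a motif is part of the description of a site.

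CTCF occupied 7 shared sites in the cluster, and 6 of them held a CTCF motif within 100 bp of the summit in both replicates. They are printed here because their strand and place relative to the genes are the base of the CTCF results. Each line runs 5′ to 3′ along the strand named, in Sscrofa11.1, with the 19 bases that matched the motif in capitals. The last site had its best match at a different place in each replicate, both on the forward strand.
HOXD13 to HOXD12 interval, chr15:81899012-81899040, reverse strand: accgaCTGCCCAGGAGATGGCGAGcgagc
HOXD10 first exon, chr15:81912631-81912659, forward strand: cttggAGAGCCACACGGGGGCGTGctcac
HOXD10 coding exon, chr15:81920313-81920341, reverse strand: tcttaCTGATCTCTAGGCGGCGCTcgcgg
HOXD9 exon, chr15:81923632-81923660, forward strand: tccccTCGGGCGCCAGGGGGCCGCctcgg
HOXD9 to HOXD8 interval, chr15:81928438-81928466, forward strand: gtcctTTTGCCACTAGAGAGCGCCgttgc
beyond the LOC110257186 start, replicate 1, chr15:81942362-81942390, forward strand: ctccgCCTTCCTGGAGGGGGCGCGatttc
beyond the LOC110257186 start, replicate 2, chr15:81942285-81942313, forward strand: gcgagACGCGCAGCAGAAGGAGCCccgag

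On the HOXD1 side, CTCF motifs lay almost entirely on the reverse strand. The first 5 lines below are examples of these, chosen along the flank after their values were seen, and the last line is the lone forward motif of that side.
MTX2 intron, chr15:82072097-82072125, reverse strand: caggaCAGGCCTGCAGGGGGAGCTctctt
LOC110257070 intron, chr15:82248038-82248066, reverse strand: agggaCTTACCAGCAGGGGGAAACctttt
intergenic, between LOC110257070 and LOC102161209, chr15:82281462-82281490, reverse strand: ggagaCCCGCCGCCAGGGGGCGCTccgcg
LOC102161209 exon, chr15:82444312-82444340, reverse strand: ctcttCCGTCCACTAGAGGGTGGCtccgc
LOC110256916 intron, chr15:82590182-82590210, reverse strand: tctccACAACCGCTGGATGTCACTgttgc
LOC110256983 intron, chr15:82860886-82860914, forward strand: gctctTCTGCCACCAGAGGTGCCAaagat

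H3K4me3 was found at 7 of the 8 HOXD gene starts in both replicates, against 55.4% of all annotated genes and 68.9% of protein-coding genes. HOXD3 was the gene without it. The enrichment was moderate at each of the 7. It ranged from 18.3 to 45.3 in replicate 1, where the median over all genes with a peak at the TSS was 50.9, and from 9.35 to 23.8 in replicate 2, where that median was 24.8. HOXD1, the last gene of the row and among the first to be expressed in the embryo, had 45.3 and 17.7 in replicates 1 and 2. HOXD8 had 37.9 and 23.8. HOXD11, HOXD10 and HOXD9 all had 41.2 and 19.7, because their annotated starts lie within 1 kb of the same peak, chr15:81905017-81910939 in replicate 1 and chr15:81904792-81911429 in replicate 2. The posterior end was lower: HOXD13, the gene of digits and the genital tubercle, had 34.3 and 10.6. HOXD12 had 18.3 and 9.35, and these belonged to a peak that ended 603 bp before its start in replicate 1, while the peak on the gene itself reached 4.48 and 5.97. HOXD13 and HOXD12 were thus the lowest of the marked genes in both replicates, whereas the order of HOXD1, HOXD8 and the shared HOXD11 peak differed between replicates.

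H3K27ac had peaks in both replicates at 5 of the 8 starts, against 50.1% of all genes and 60.7% of protein-coding genes, a share near that of the 8. Both histone marks were present in both replicates at the same 5 genes, against 47.0% of all genes. HOXD8 stood highest, with an H3K27ac fold enrichment of 21.0 and 22.8, and was the only one of the 8 above the median of marked genes (16.1 and 18.6). HOXD9 had 8.0 and 9.56, HOXD1 had 8.29 and 6.37, and HOXD11 had 5.88 and 7.17. HOXD13 had 3.44 and 5.37 in a peak of 597 and 732 bp, the lowest of the 5 genes in both replicates. HOXD10 had a weak peak of 2.64 in replicate 1 and none in replicate 2. HOXD12 had H3K4me3 in both replicates and H3K27ac in neither, a state found at 6.89% of all genes. HOXD3 had neither mark.

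**Figure D1:**
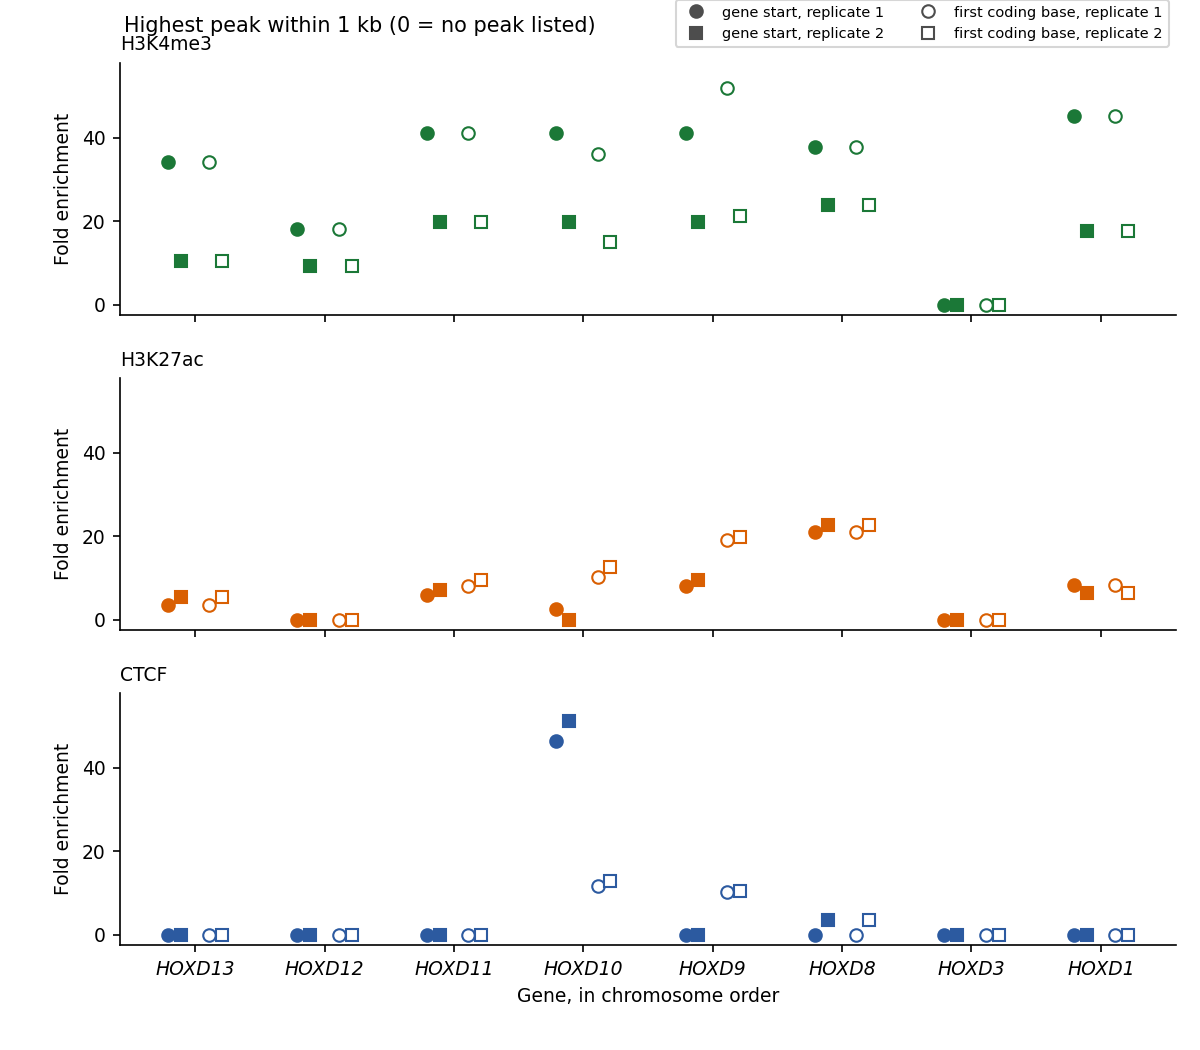
Fold enrichment (y axis) of the highest peak within 1 kb of the gene start (filled) and of the first coding base (open) for the 8 HOXD genes in chromosome order (x axis), in replicate 1 (circles) and replicate 2 (squares), with 0 where no peak was listed. H3K4me3 is seen at all genes but HOXD3, H3K27ac is highest at HOXD8 with 21.0 and 22.8, and the HOXD9 and HOXD10 values depend on which base is taken.

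The annotated starts of HOXD10 and HOXD9 lie far from their coding sequence, 6464 and 13757 bp before the first coding base, inside or next to HOXD11. The first coding base was therefore taken as a second anchor, after these starts had been seen. Around it, HOXD9 had an H3K4me3 peak of 52.0 and 21.3 and an H3K27ac peak of 19.1 and 19.9. HOXD10 had H3K4me3 of 36.2 and 15.0 and H3K27ac of 10.2 and 12.5. HOXD11 had H3K27ac of 8.0 and 9.56. With this anchor 6 of the 8 genes had H3K27ac in both replicates, and HOXD12 and HOXD3 remained the genes without it. On either anchor H3K27ac was strong at HOXD8 and weak or absent at HOXD13 and HOXD12.

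HOXD3, an anterior gene of the cluster, began in a stretch without histone peaks. The nearest H3K4me3 peaks lay 2474 bp from its start in replicate 1 and 2510 bp in replicate 2, and the H3K4me3-free stretch around the start was 4961 and 5287 bp long. The H3K27ac-free stretch was 7141 and 5764 bp long. A peak of both marks began inside the gene, 2488 and 2778 bp after the start for H3K4me3, and ran past its end. It reached an H3K4me3 fold enrichment of 18.2 and 11.2 and an H3K27ac fold enrichment of 10.8 and 14.9. The 200 bases before this start held few CG, as did those before the starts of HOXD10, HOXD11 and HOXD9, which had H3K4me3. The windows of 200 bases before the starts of HOXD13, HOXD3 and HOXD1 are printed to show HOXD3 beside both end genes of the cluster, with each CG dinucleotide in capitals (CG reads the same on both strands).
HOXD13 chr15:81893797-81893996, forward strand: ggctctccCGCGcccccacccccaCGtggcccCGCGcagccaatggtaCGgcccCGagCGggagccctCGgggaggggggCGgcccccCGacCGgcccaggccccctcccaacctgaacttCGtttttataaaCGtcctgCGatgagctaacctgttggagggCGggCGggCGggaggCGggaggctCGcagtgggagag
HOXD3 chr15:81969282-81969481, forward strand: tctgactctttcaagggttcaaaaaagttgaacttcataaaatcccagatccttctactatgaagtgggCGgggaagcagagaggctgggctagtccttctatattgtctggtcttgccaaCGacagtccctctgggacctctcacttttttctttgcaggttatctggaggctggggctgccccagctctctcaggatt
HOXD1 chr15:81987418-81987617, forward strand: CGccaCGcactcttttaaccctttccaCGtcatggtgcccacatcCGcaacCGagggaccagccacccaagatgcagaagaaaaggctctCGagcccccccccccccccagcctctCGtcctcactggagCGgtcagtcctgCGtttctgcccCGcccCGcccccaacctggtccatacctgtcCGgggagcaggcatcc
These windows hold 20 CG in HOXD13, 2 in HOXD3 and 12 in HOXD1. The same window holds 9 in HOXD12, 3 in HOXD11, 0 in HOXD10, 3 in HOXD9 and 17 in HOXD8, so that a low count was not particular to the unmarked gene. In 1000 bp centred on the start, HOXD13 had 120 CG, HOXD12 had 53, HOXD11 had 29, HOXD10 had 8, HOXD9 had 39, HOXD8 had 85, HOXD3 had 9 and HOXD1 had 84. The median was 37 over all genes, 67 over all genes with H3K4me3 at the start in both replicates and 14 over the other genes. In this wider window HOXD9 lay just above the median of all genes, while HOXD3 and HOXD10 lay below that of the other genes. HOXD12, HOXD11, HOXD10 and HOXD9 were thus below the median of marked genes although they had H3K4me3. At HOXD10, the lowest of the 8, the highest H3K4me3 peak was the one shared with HOXD11, and replicate 2 also had a peak of 6.23 within 1 kb of the start. Whether the annotated start of HOXD3 is the one used in these cells was not tested.

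Across the cluster as a whole, peaks covered most of the sequence. H3K4me3 peaks, 18 and 17 in number, covered 63.0% and 69.1% (66.1 ± 4.29%, SD, n = 2), where the genome-wide coverage was 2.94 ± 0.353%. H3K27ac peaks, 15 in each replicate, covered 54.0% and 53.9% (54.0 ± 0.0788%), where the genome had 5.94 ± 0.0314%. The marks were not spread alike. In the first 10 kb, which hold HOXD13 and HOXD12, H3K4me3 covered 53.4% and 62.9% but H3K27ac covered 5.93% and 11.5%. From 30 to 40 kb, around HOXD9 and HOXD8, H3K27ac covered 95.4% and 88.0%. From 60 to 70 kb both marks covered 100% in both replicates.

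**Figure D2:**
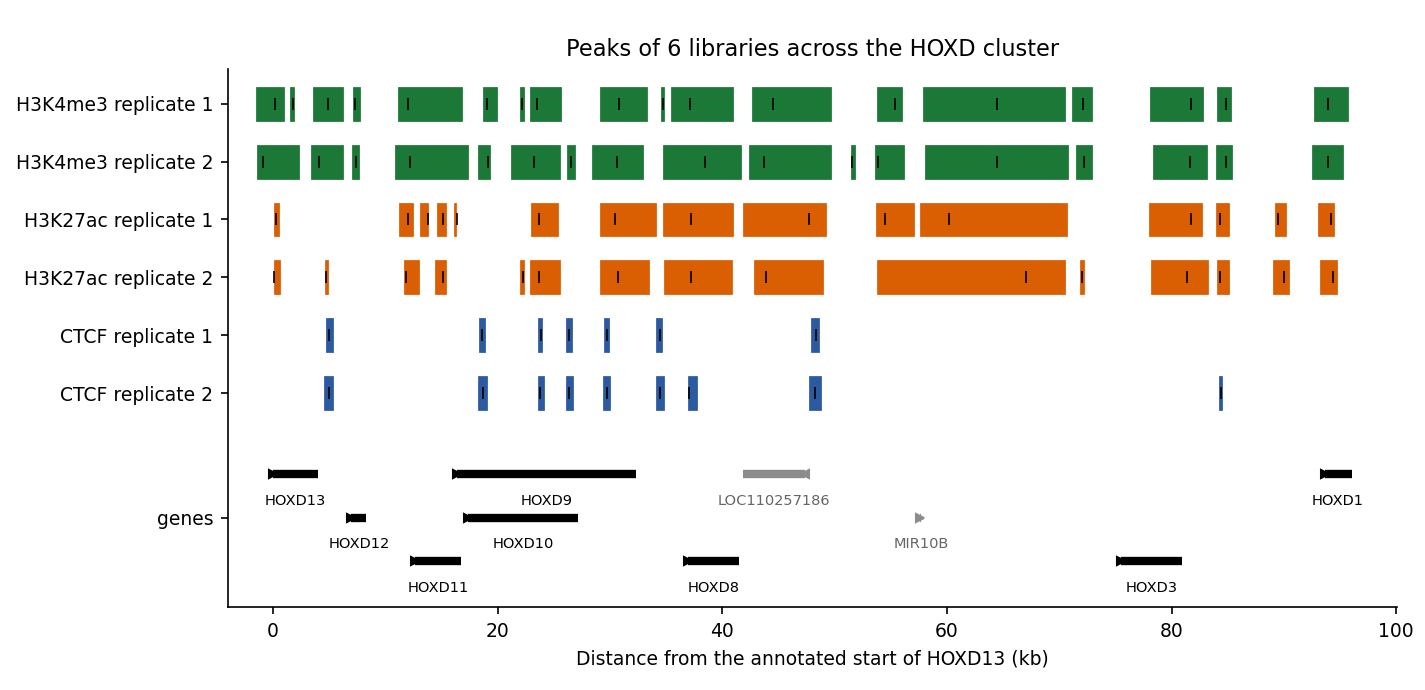
Peaks of the 6 libraries across the HOXD cluster (bars, with a tick at each summit) by distance from the annotated start of HOXD13 in kb (x axis), over the annotated genes (black, HOXD genes; grey, others; arrowheads, start and direction). H3K27ac is sparse in the first 10 kb, the broad domain of both histone marks lies between MIR10B and HOXD3, and the 7 CTCF sites shared by both replicates lie in the first 49 kb.

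The widest domain of the cluster lay between MIR10B and HOXD3. Its H3K4me3 peak, chr15:81951747-81964562 in replicate 1 and chr15:81951926-81964912 in replicate 2, was 12.8 and 13.0 kb wide, which ranked 37 of 37932 and 72 of 43516 peaks by width. Its height was modest, with a fold enrichment of 21.1 and 11.8. The H3K27ac peak over the same stretch was 13.3 kb wide in replicate 1 (rank 404 of 74983) and 16.9 kb wide in replicate 2 (rank 168 of 81164), with 13.2 and 12.4. The annotation used places no gene inside this H3K4me3 peak. In other mammals HOXD4 stands between MIR10B and HOXD3, and as it is not named here, whether the domain covers it was not tested. The H3K4me3 peak began beside MIR10B in both replicates, as did the H3K27ac peak of replicate 1. The H3K27ac peak of replicate 2 began further upstream, at chr15:81947716. MIR10B encodes the microRNA miR-10b, known to target HOXD10 mRNA. Its mature sequence is printed to show where the H3K4me3 peak begins, with the seed, bases 2 to 8, in capitals.
miR-10b, chr15:81951653-81951674, forward strand: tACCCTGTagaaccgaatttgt
These bases lay inside the H3K27ac peak in both replicates and 73 and 252 bp before the H3K4me3 peak.

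The strongest H3K27ac of the cluster was at LOC110257186, an uncharacterized protein-coding gene on the reverse strand between HOXD8 and MIR10B. Its peak, chr15:81935780-81943330 in replicate 1, had a fold enrichment of 32.6 (rank 978 of 74983) and 25.03 in replicate 2 (rank 4534 of 81164). H3K4me3 there was 24.7 and 16.8. A CTCF peak of 33.1 and 50.9 stood within 1 kb of its start, and this was the only annotated start inside the cluster with H3K4me3, H3K27ac and CTCF in both replicates, a state found at 11.5% of all genes and at none of the 8 HOXD genes.

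CTCF was found within 1 kb of a HOXD gene start in both replicates at 1 of the 8 genes, against 15.2% of all genes. That gene was HOXD10, with 46.4 and 51.2. The summit of this peak lay more than 1 kb from the start, within the first exon, and no HOXD gene had a CTCF summit within 1 kb in both replicates. HOXD8 had a weak CTCF peak of 3.60 in replicate 2. Around the first coding base, CTCF was present at HOXD10 (11.7 and 12.8) and HOXD9 (10.3 and 10.6).

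The cluster held 7 CTCF peaks in replicate 1 and 9 in replicate 2, and all 7 of replicate 1 had a partner. The highest lay between HOXD13 and HOXD12, 5.01 kb from the HOXD13 start, with a fold enrichment of 47.8 and 66.8 (rank 836 of 44682 in replicate 2). By mean, those in the HOXD10 first exon (46.4 and 51.2), beyond the start of LOC110257186 (33.1 and 50.9), between HOXD9 and HOXD8 (37.9 and 38.2) and in the HOXD10 coding exon (25.7 and 25.5) followed. The peaks near the HOXD9 coding start (10.3 and 10.6) and at the HOXD10 coding start (11.7 and 12.8) were the weakest of the 7, and the latter had no motif. The remaining 2 peaks of replicate 2 had no partner and were weaker than all of these, with 3.60 and 5.80. Of the 7 shared sites, 6 lay between HOXD13 and HOXD8, and the last, beyond the LOC110257186 start, lay between HOXD8 and MIR10B. From there on replicate 1 had no CTCF peak for 129.1 kb, a stretch that holds MIR10B, HOXD3 and HOXD1 and ends in an intron of MTX2. In replicate 2 this stretch was interrupted by the peak of 5.80.

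Motif strands were read from the genome sequence under each summit. A motif was found in 6 of 7 cluster peaks of replicate 1 and 7 of 9 of replicate 2, where 88.0% and 86.6% of CTCF peaks outside chromosome 15 held one, compared with 9.62% and 9.51% of sequences 1 kb away. In the printed sites the motif between HOXD13 and HOXD12 was on the reverse strand, as were those of the 2 strong peaks near EVX2, 6.37 and 12.8 kb outside the cluster (32.6 and 35.6, and 28.3 and 33.2). Next came a forward motif in the HOXD10 first exon, a reverse motif in the HOXD10 coding exon, and forward motifs in the last 3 sites. The cluster thus had 4 forward and 2 reverse motifs in replicate 1 and 4 and 3 in replicate 2.

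On the HOXD1 side, 12 of 13 motifs in replicate 1 and 15 of 16 in replicate 2 were on the reverse strand, that is, they pointed towards the cluster and faced its forward motifs. The HOXD13 side held 10 forward and 9 reverse motifs in both replicates. Outside chromosome 15, 50.1% of motifs were on the forward strand in either replicate. The strand could be read in both replicates at 38 of the 47 shared sites of the region, and it was the same at all 38. At 37 of these both summits led to the same bases of the same genome sequence. The replicates are therefore no independent readings of strand. The lone forward motif of the HOXD1 side, at 967.0 kb from the HOXD13 start, was under a weak peak of 6.40 and 6.86. It was no longer counted at a motif p-value of 1e-05, when all motifs of that side were reverse. That limit also dropped reverse motifs of the side, such as the printed one in the LOC110256916 intron (motif p-value 3.57e-05), so that fewer were left. No test of strand was made within the region. The strongest CTCF peak of the HOXD1 side, chr15:82915151-82916004 with 67.2 and 81.9, had no motif in either replicate and lay inside the strongest of the H3K27ac regions of that side that were more than 1 kb from any TSS. The coordinates of these peaks span both replicates. The next, chr15:82589761-82590930 (50.3 and 51.6) and chr15:82443724-82444723 (45.1 and 52.8), are among the reverse sites printed. On the HOXD13 side the strongest 3 by the mean of replicates were intergenic, with a forward motif at chr15:81145494-81146876 (60.5 and 43.9) and chr15:81523676-81524752 (46.9 and 54.4) and a reverse motif at chr15:81101547-81102603 (48.7 and 44.2). In replicate 2 a peak in a CHN1 intron (53.8, and 37.7 in replicate 1) stood above the first and the last of these.

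**Figure D3:**
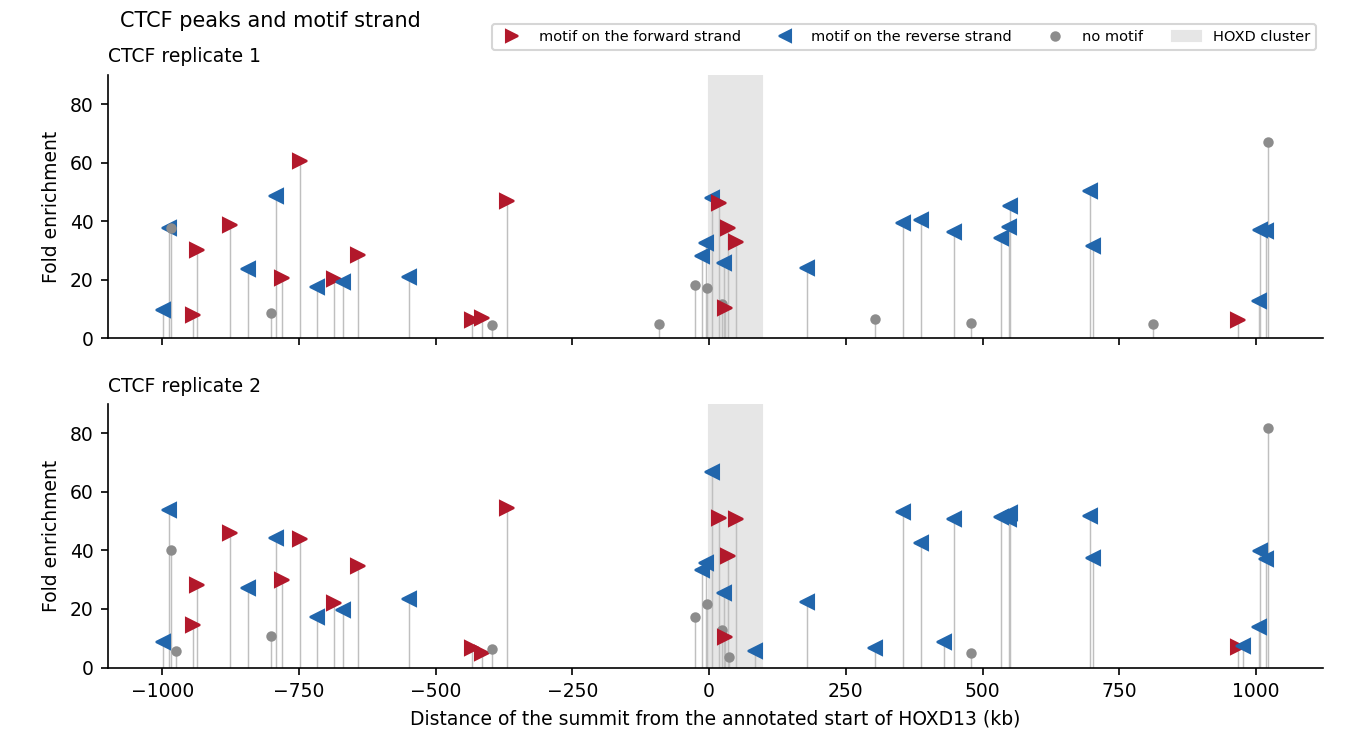
CTCF peaks of replicate 1 (top) and replicate 2 (bottom) by distance of the summit from the annotated start of HOXD13 in kb (x axis) and fold enrichment (y axis), with the strand of the motif as right-pointing (forward) and left-pointing (reverse) triangles and peaks without a motif as grey circles. To the right of the cluster (grey band) 12 of 13 and 15 of 16 motifs are reverse, and to the left 10 are forward and 9 reverse.

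The flanks differed in H3K27ac. The HOXD1 side had 41 and 43 summits (42 ± 1.41 per Mb) and the HOXD13 side 21 and 19 (20 ± 1.41 per Mb), where the genome had 32.4 ± 1.80 per Mb. Peaks covered 7.65 ± 0.0200% of the HOXD1 side and 3.19 ± 0.376% of the HOXD13 side. The numbers of annotated starts were near each other, 7 on the HOXD1 side and 8 on the HOXD13 side. In 1 Mb, CTCF went the other way, with 17 and 18 summits on the HOXD1 side and 25 in each replicate on the HOXD13 side (genome, 17.6 ± 1.29 per Mb). This order of CTCF held for 1 Mb and not for flanks of 500 kb, where the means were 19 per Mb on the HOXD1 side and 17 on the HOXD13 side. H3K4me3 had 20 and 27 summits on the HOXD1 side and 16 and 18 on the HOXD13 side (genome, 16.8 ± 1.65 per Mb). For H3K27ac and CTCF in 1 Mb the values of the 2 sides did not overlap between replicates, and the gap was wider than the difference between replicates. Both sides are read from the same libraries, so that replicates are no independent test of a side.

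The H3K27ac of the HOXD1 side was grouped. Of its summits, 22 in each replicate lay between 200 and 500 kb from the cluster, and 12 and 14 lay in the last 100 kb, which hold HNRNPA3 and part of NFE2L2. There was none between 700 and 900 kb. Regions shared by both replicates and more than 1 kb from any TSS numbered 34 on the HOXD1 side, of which 13 also had H3K4me3 and 8 had CTCF in both replicates, and 12 on the HOXD13 side, of which 4 had H3K4me3 and 5 had CTCF. The strongest on the HOXD1 side was chr15:82914759-82923977, in an intron of LOC110256983, with 33.4 and 27.8. An intergenic region 432.9 kb from the cluster, chr15:82422938-82427644, followed with 25.7 and 29.8 and carried a strong H3K4me3 peak of 42.6 and 25.3 although the nearest annotated start, LOC102161209, was 18581 bp away. The third was intergenic, at 350.7 kb from the cluster, chr15:82340705-82342792, with 15.2 and 19.3. All 3 carried H3K4me3 and CTCF in both replicates.

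On the HOXD13 side the shared distal regions were fewer near the cluster, and the strongest 3 were weaker than the strongest 3 of the HOXD1 side. This did not hold for the shared H3K27ac regions as a whole, those near a TSS included. Their median of mean fold enrichment was 9.51 on the HOXD13 side and 5.23 on the HOXD1 side. The strongest distal region of the HOXD13 side, chr15:80886730-80896526 in an intron of CHN1, had 18.7 and 19.3 and crossed the outer edge of the flank. A second CHN1 intron region, chr15:80903828-80906245, had 10.7 and 10.9. A region in an intron of LNPK, chr15:81756007-81758984, had 10.4 and 10.5 at 135.0 kb from the cluster and carried neither H3K4me3 nor CTCF in both replicates. The longest stretch without H3K27ac in either replicate was 273.9 kb and began 165.0 kb from the cluster, and the longest without CTCF was 277.5 kb and began 91.7 kb from it. The latter holds 2 annotated starts, of a long non-coding RNA and a pseudogene, both without H3K4me3. On the HOXD1 side the longest such stretches were 241.9 kb for H3K27ac and 155.0 kb for CTCF.

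**Figure D4:**
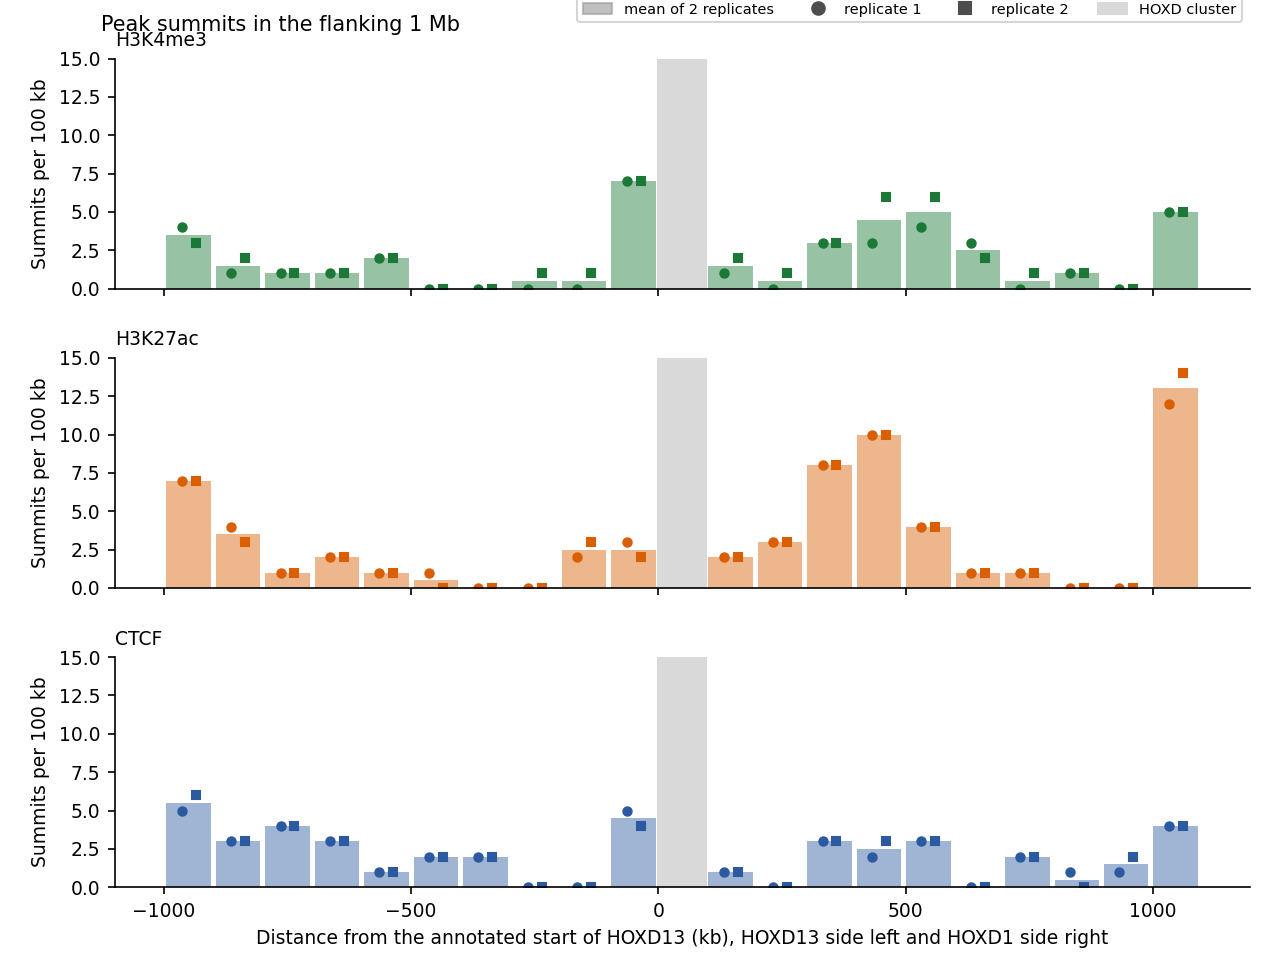
Peak summits per 100 kb (y axis) in the 1 Mb on either side of the HOXD cluster (grey band) by distance from the annotated start of HOXD13 in kb (x axis), for H3K4me3, H3K27ac and CTCF, with the mean of 2 replicates (bars) and replicates 1 (circles) and 2 (squares). H3K27ac shows 22 summits in each replicate between 200 and 500 kb from the cluster on the HOXD1 side. CTCF and H3K27ac leave long empty stretches on both sides, the longest of each on the HOXD13 side.

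Next to HOXD13, H3K4me3 continued beyond the cluster with little H3K27ac. Around EVX2, a homeobox gene that neighbours HOXD13, 5 shared H3K4me3 regions lay between 2.88 and 24.5 kb from the cluster, with a fold enrichment of 16.5 and 9.99, 20.7 and 15.4, 5.83 and 10.8, 16.4 and 10.03, and 40.2 and 22.7 from far to near. H3K27ac was shared at the nearest of these (10.8 and 8.84) and at no other. At the EVX2 start itself H3K4me3 was 16.4 and 10.03, with no H3K27ac peak, as at HOXD12. The other named protein-coding neighbours had both marks in both replicates. MTX2, a mitochondrial outer membrane protein gene next to HOXD1, had H3K4me3 of 67.8 and 33.4 and H3K27ac of 15.9 and 15.1. LNPK, which encodes the endoplasmic reticulum protein lunapark, had 59.7 and 34.5 and 13.3 and 15.8. ATF2, a transcription factor gene, had 46.3 and 23.0 and 15.7 and 18.2. ATP5G3, which encodes a subunit of ATP synthase, had 52.7 and 30.0 and 16.5 and 21.3, with CTCF of 8.73 and 10.9. CHN1, which encodes a GTPase-activating protein, had 68.1 and 27.7 and 8.29 and 10.7, and HNRNPA3, an RNA-binding protein gene, had 27.9 and 27.7 and 28.6 and 31.5. With the exception of HNRNPA3 in replicate 1, each of these 6 genes had more H3K4me3 enrichment than any of the 8 HOXD starts in replicate 1, and in replicate 2 the exceptions were ATF2 alone, at 23.0 against 23.8 at HOXD8.

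The other HOX clusters give the scale for these values. H3K4me3 covered 79.1 ± 3.41% of HOXA, 49.0 ± 3.11% of HOXB, 71.9 ± 2.15% of HOXC and 66.1 ± 4.29% of HOXD. H3K27ac covered 71.5 ± 0.930% of HOXA, 37.8 ± 0.434% of HOXB, 58.8 ± 1.01% of HOXC and 54.0 ± 0.0788% of HOXD. HOXD lay between HOXB and HOXC in both, with an interval of ± 1 SD that met that of HOXC for H3K4me3. Its H3K27ac was in more pieces, 15.6 peaks per 100 kb compared with 5.12 to 7.95 in the other clusters. CTCF had 8.33 ± 1.47 peaks per 100 kb in HOXD and 5.43 to 6.08 in the others. H3K4me3 was at 11 of 11 HOXA, 7 of 8 HOXB and 8 of 9 HOXC starts, and H3K27ac at 10, 6 and 7 of them. The median H3K27ac fold enrichment at marked starts was 6.94 and 7.17 in HOXD, 26.7 and 30.4 in HOXA, 20.1 and 17.8 in HOXB and 37.5 and 42.0 in HOXC. HOXB spans 165.7 kb, as HOXB13 stands apart from the rest of it, and the others 96.0 to 117.2 kb. The genes of a cluster often share a peak, so that these medians rest on fewer peaks than genes. The HOXD median of replicate 1 includes the HOXD10 peak of 2.64 that replicate 2 lacked. Around the first coding base, H3K27ac was higher at HOXD9 (19.1 and 19.9) and HOXD10 (10.2 and 12.5). That anchor was not taken for the other clusters.

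**Figure D5:**
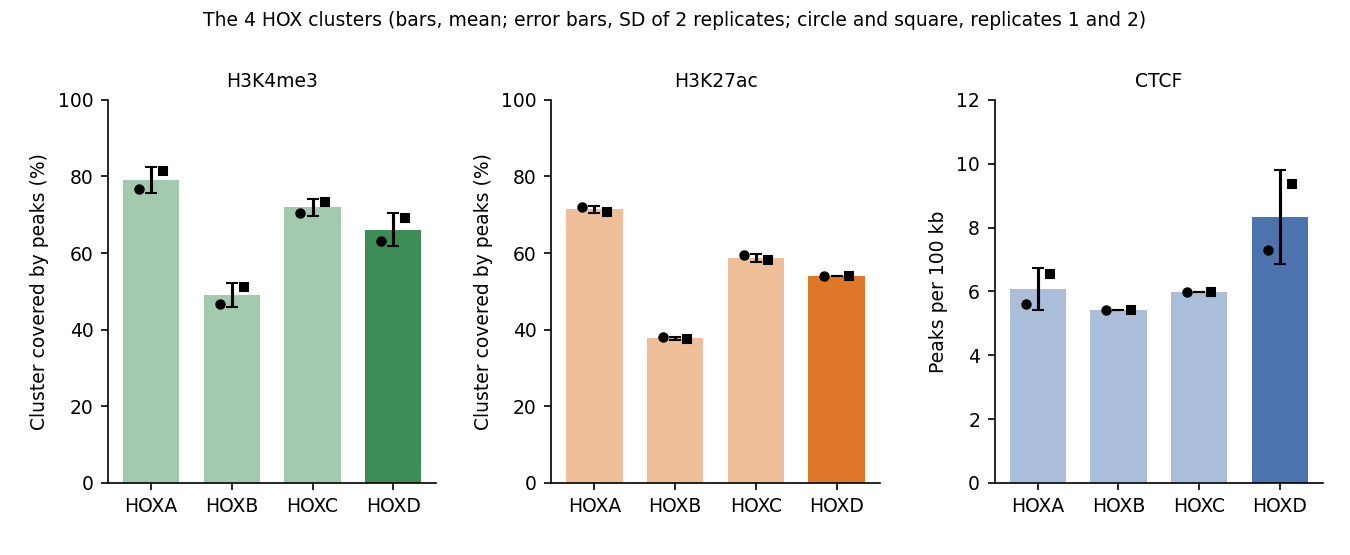
Percent of each HOX cluster covered by H3K4me3 and H3K27ac peaks and CTCF peaks per 100 kb (y axes) in HOXA, HOXB, HOXC and HOXD (x axis), with the mean (bars), the SD of 2 replicates (error bars) and replicates 1 (circles) and 2 (squares). HOXD lies between HOXB and HOXC for both histone marks, at 66.1% and 54.0%, and has the highest density of CTCF peaks, 8.33 per 100 kb.

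Paralogues, genes of the same number in other clusters, stood above HOXD genes in some groups and below them in others. In group 13, H3K27ac was 3.44 and 5.37 at HOXD13, 3.19 and 2.51 at HOXC13, and listed at no peak at HOXA13 and HOXB13. All 4 had H3K4me3, from 8.99 and 7.25 at HOXB13 to 34.7 and 16.6 at HOXA13. In group 12, neither HOXD12 nor HOXC12 had H3K27ac. In group 11, HOXA11 (9.24 and 10.3) was near HOXD11 (5.88 and 7.17), and HOXC11 had no peak of any library. In group 10, all 3 genes had CTCF at the start, with 46.4 and 51.2 at HOXD10, 30.0 and 28.7 at HOXA10 and 21.5 and 29.3 at HOXC10. In group 9, H3K27ac was 40.3 and 42.6 at HOXA9 and 37.5 and 42.0 at HOXC9, far above HOXD9 on either anchor. In group 8, HOXD8 (21.0 and 22.8) lay between HOXB8 (15.0 and 13.2) and HOXC8 (37.5 and 42.0). In group 3, H3K27ac was 40.3 and 42.6 at HOXA3 and 20.1 and 3.35 at HOXB3, and absent at HOXD3.

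Over the 6 libraries, the HOX gene of another cluster with the most similar profile was found for each HOXD gene among 28 genes, by Euclidean distance of log2(1 + fold enrichment). It was HOXC13 for HOXD13 (0.92), HOXB13 for HOXD12 (1.00), HOXA11 for HOXD11 (0.87) and for HOXD9 (0.50), HOXC10 for HOXD10 (3.23), HOXB2 for HOXD8 (2.25) and HOXA4 for HOXD1 (0.75). HOXD3 was at distance 0 from HOXB1 and HOXC11, all 3 being without peaks. The nearest genes of HOXD13, HOXD11 and HOXD10 were thus paralogues. For HOXD11 this was hardly closer than the next gene, HOXA4 (0.88). The second nearest were HOXA4 (1.26) for HOXD13 and the paralogue HOXA10 (3.94) for HOXD10. The profiles of HOXD11, HOXD10 and HOXD9 are not separate, as they share their highest H3K4me3 peak (41.2 and 19.7). The H3K27ac of HOXD9 (8.0 and 9.56) is a peak with its summit in the HOXD11 coding exon. Its nearness to HOXA11 is therefore no result apart from that of HOXD11.

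Partners of HOX proteins carried both marks at most starts. Of 9 genes of the PBX, MEIS and PKNOX families, homeodomain cofactors that bind DNA together with HOX proteins, 8 had H3K4me3 and H3K27ac in both replicates, against 47.0% of all genes, and PKNOX1 had neither. The 2 with the highest mean H3K4me3 were MEIS2 and PBX4, although PBX3 (66.3) was the highest in replicate 1 and MEIS1 (39.9) in replicate 2. MEIS2 had H3K4me3 of 62.9 and 39.5 and H3K27ac of 13.9 and 16.4. PBX4 had 58.6 and 30.6 and 5.13 and 10.8. None of the 9 had CTCF at the start in either replicate. As 15.2% of all genes had it in both replicates, little can be read from its absence at so few genes.

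Genes of limb patterning, a process in which HOXD13 to HOXD9 act, had H3K4me3 at 18 of 20 starts in both replicates, against 68.9% of protein-coding genes. H3K27ac was at 11 of the 20, near the 60.7% of protein-coding genes. MSX2 (74.6 and 40.9, with H3K27ac of 22.8 and 23.4) and TWIST1 (61.8 and 48.2, with 33.5 and 40.6), both genes of limb mesenchyme, had the highest mean H3K4me3, although GLI3 (68.3) and MSX1 (63.6) were above TWIST1 in replicate 1. ALX4 had no peak and FGF10 had H3K4me3 in replicate 2 alone. TBX4 (10.1 and 6.52) and PITX1 (17.5 and 11.8) had H3K4me3 without H3K27ac in either replicate, as did SHH (15.8 and 8.99), SALL4, LMX1B and FGF8. This was the same combination as at HOXD12 and EVX2. TBX5 (23.1 and 15.4) came close to it, with no H3K27ac in replicate 1 and a peak of 7.06, 980 bp from the start, in replicate 2. Which body parts of the fetus the fibroblasts came from is not given in the sources used here.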

How the data were processed

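ChIP-seq peaks of H3K4me3, H3K27ac and CTCF from untreated PEFs were analysed, 2 libraries each. Reads were mapped by the authors with Bowtie2, filtered for uniquely mapped fragments and duplicates, and narrow peaks were called with MACS2 in each library. The build, Sscrofa11.1, is given in the submitters' processing notes. For each peak the deposited lists hold a fold enrichment over the control (a ratio), which was used here, and −log10 p-values and q-values, of which the q-values were used in the alternatives. The deposited integer score repeats the −log10 q-value times 10 in nearly all peaks and was not used. The stated q-value was 0.01, whereas the highest in the lists was 0.0432 to 0.0499. Inputs (2 samples) were not analysed here.

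Genes and starts came from the RefSeq annotation (release 106), with GeneIDs matched by symbol. A gene had a peak where any base of a peak lay within 1 kb of its start, and a region was shared where peaks of both replicates overlapped by at least 1 bp. Coverage is the percent of bases under peaks. The CTCF motif, a matrix of 19 positions, was learned from the 2000 strongest CTCF peaks of replicate 1 outside chromosome 15, starting from matches to a core of 12 letters. The best match on either strand within 100 bp of a summit was kept at a p-value per position of 0.0001, exact for the base composition. The peak, coverage and motif routines were tested on simulated data. Python 3.11.15, numpy 2.4.6, pandas 2.3.3 and pysam 0.24.0 were used. Sequences were read from the RefSeq genome of the same build.

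The text names all HOXD genes and their paralogues, all protein-coding and microRNA genes of the region that have a name, the 3 strongest distal H3K27ac regions and CTCF peaks of each side by the mean of replicates, every shared CTCF site of the cluster, and, of the lists of cofactors and limb genes, the 2 with the highest mean H3K4me3 and those without a peak. Other genes of these lists, and the markers, were named after their values were seen. The members, lists and comparisons were chosen with earlier results of these data known, and no test was made. With 2 libraries of 1 cell type, the text gives each replicate or the mean ± SD, and intervals cannot be computed without read counts. Alternatives were another TSS window or anchor, the summit, a minimum of 5 for the −log10 q-value, partners by 50%, flanks of 500 kb, other motif limits and the omission of a replicate.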

Additional observations from a re-analysis of the deposited data

How the results depend on the processing

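Of 88 alternative values for 15 results, 74 stayed within 1.5 times the count or within the SD of the replicates, and 14 moved. No paired analysis was possible because the results come from no test. The H3K4me3 count at HOXD starts was 7 and fell to 4 with the summit within 1 kb. The H3K27ac count was 5 and rose to 8 with 5 kb. The CTCF count was 1, and became 5 with 5 kb, 0 with the summit, 2 with the first coding base, and 1 to 2 when a replicate was left out. The H3K27ac coverage of the cluster, 54.0%, was 51.6% at a −log10 q-value of at least 5, 53.0% with a partner and 50.6% with a 50% partner. H3K4me3 summits in the flanks numbered 20.3 per Mb and 13.3 with a 50% partner. H3K27ac on the HOXD13 side, 20 per Mb, was 13 with a 50% partner and 11 with 500 kb. CTCF on the HOXD13 side fell from 25 to 17 per Mb with 500 kb, below the 19 of the HOXD1 side. The reverse share of HOXD1-side motifs, 93.0%, was 100% at a p-value of 1e-05 and 96.7% with a 50 bp search. The limit of 1e-05 dropped reverse motifs as well as the forward one. The causes of these shifts were not tested. The alternatives on the flanks taken side by side, on the HOXD1-side motifs and on the first coding base were chosen after seeing the data. Read depth, unknown here, limits whether an unlisted peak is an absent one.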
